A study of Gallus gallus with 6 samples.

Results

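The genes described here encode matrix metalloproteases (MMPs), disintegrin metalloproteases (ADAMs), their secreted thrombospondin-type relatives (ADAMTS) and inhibitors of proteases. They were taken by gene symbol, as every row of the deposited gene table whose symbol starts with MMP, ADAM, TIMP, HTRA or PRSS and a digit, with ADAMTS, or with SERPIN and a clade letter, or equals RECK. The rule took 76 of 17108 rows, of which the authors tested 40. The rule itself uses no measured value, though it was written with earlier results of these data known. Of the 76, 14 were MMPs, 10 ADAMs, 18 ADAMTS or ADAMTS-like genes, 4 TIMPs or RECK, 11 HTRA or PRSS genes and 19 serpins.

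Wild type chick embryos were dissected at embryonic day 3, Hamburger and Hamilton stage 18, and each sclerotome, the ventral part of a somite, was cut into an anterior and a posterior half-sclerotome. For each type 3 libraries were made, each from a pool of 100 half-sclerotomes taken between the 11th and 23rd most recent somite, and the labels name no treatment and no genetic change. Whether the pools came from separate embryos is not stated, so the authors' p-values may measure spread that is partly technical. The table holds 1 FPKM value (fragments scaled by transcript length and library total) for each type of half-sclerotome and none per library, so a level has no error of its own, and the authors' q-value is the only measure of error.

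Sclerotome cells lie in a matrix of fibronectin, collagens and the proteoglycan versican. MMPs and ADAMTS enzymes cut that matrix, whereas most ADAMs cut proteins at the cell surface, among them Notch, cadherins and ephrins. TIMPs and RECK block metalloproteases, and serpins mostly block serine proteases such as plasminogen activators and thrombin. The anterior half-sclerotome is the one that migrating crest cells and outgrowing motor axons enter, and the posterior one turns them away.

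The pools carried the marks of their labels, and of other cells too. The sclerotome gene PAX1 was at 367 FPKM in anterior and 490 in posterior half-sclerotomes, the posterior marker UNCX at 1.45 and 87.8, and the anterior marker TBX18 at 32.5 and 3.10. All 7 tested neural crest and Schwann cell precursor markers had a higher level in anterior (summed FPKM of the list 231.6 and 16.0, anterior and posterior), as had all 7 tested dermomyotome and myotome markers (81.9 and 24.4) and all 3 tested neuron markers (88.0 and 51.1). Of 8 endothelial markers, 7 had a higher level in posterior (87.1 and 129.5). Of 6 tested sclerotome markers, 5 had a higher level in posterior (689 and 954), and FOXC2, at 185 and 179 FPKM, did not. Summed levels of leukocyte markers were 10.5 and 6.71 FPKM and those of red blood cell markers 525 and 446, mostly from HBG1 (512 and 434). No marker of these 2 lists was called (0 of 3 tested in each, beside 7.07% of all tested rows). Of 4 tested surface ectoderm markers, 2 were higher in anterior and 2 in posterior (summed FPKM of the list 20.8 and 18.0). None of the 4 was called (beside 7.07% of all tested rows), which in so few genes does not set them apart. The 2 notochord and floor plate rows, not tested, summed to 0.131 and 0.0969 FPKM. Fewer cells of a type and less RNA per cell cannot be told apart in such pools. The part of these cells in the differences below was not tested. This holds for every called member, also for MMP2, MMP16, ADAMTS5, ADAMTS19 and SERPINE2, which are not set beside markers below.

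At a q under 0.05 from the authors' deposited table, 8 of the 40 tested members differed between the groups (20%, beside 7.07% of all 10529 tested rows). In posterior half-sclerotomes 4 were higher, MMP2, MMP16, ADAM22 and SERPINI1, beside 3.57% of all tested rows. In anterior half-sclerotomes another 4 were higher, ADAM12, ADAMTS5, ADAMTS19 and SERPINE2, beside 3.50% of all tested rows. The counts were thus equal in both directions, and each family except the TIMPs with RECK and the HTRA with PRSS genes had 2 calls. At 1.5-fold or more were 9 of the 40 tested members (22.5%, beside 10.8% of all tested rows with a level above 0 in both groups). Only ADAM12 and ADAMTS5 reached 2-fold among tested members (5%, beside 4.96% of those rows). The share at 2-fold was thus that of all such rows. No tested member reached 4-fold (beside 1.21%), which in 40 genes does not set them apart. The median log2 ratio of posterior over anterior was -0.07 over tested members and 0.00 over all tested rows. The median absolute log2 ratio was 0.32 over members and 0.15 over all tested rows. At an unadjusted p under 0.05 from the authors' deposited table, 17 members passed, 42.5% beside 16.1% of all tested rows. Of these, 6 were higher in posterior (beside 8.21% of all tested rows) and 11 in anterior (beside 7.93%).

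**Figure D1:**
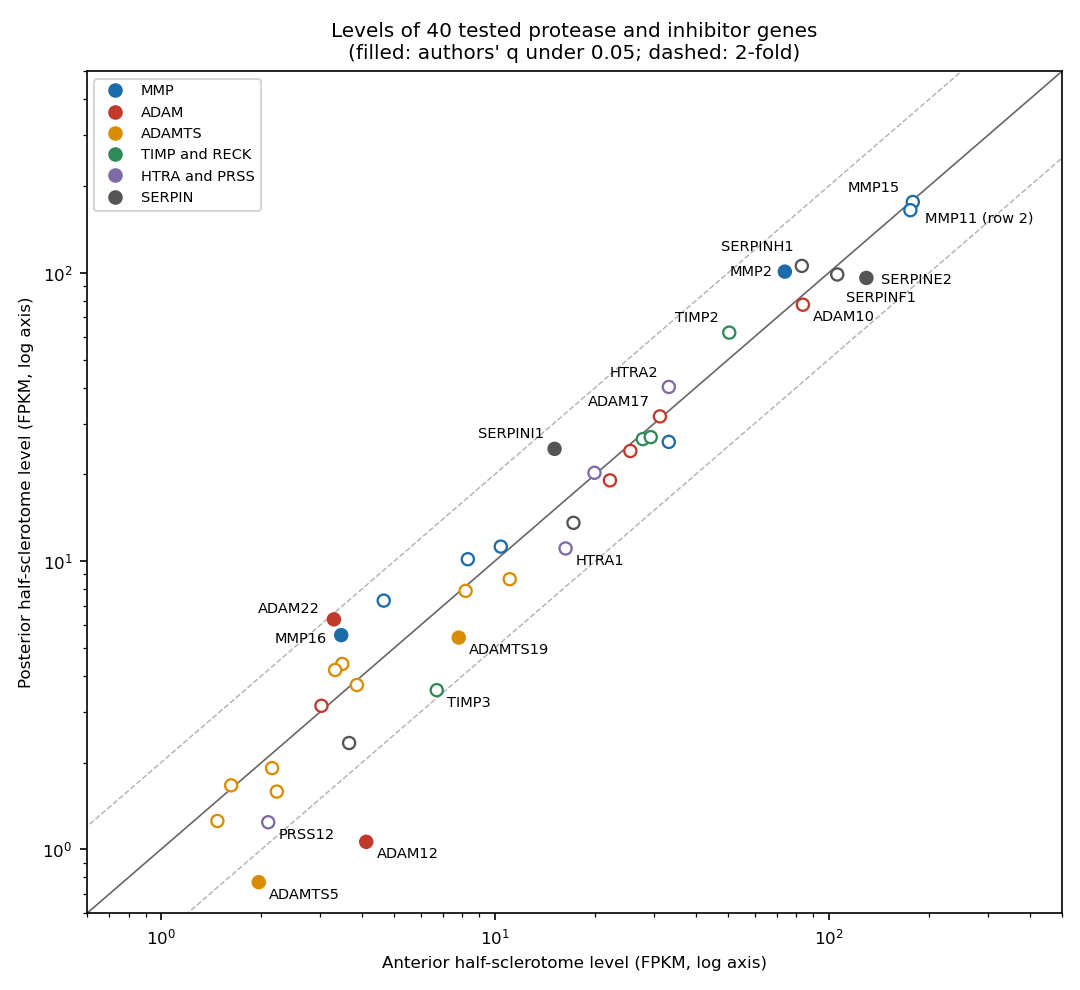
Levels of the 40 tested members in FPKM, anterior on the horizontal and posterior on the vertical axis, both logarithmic, 1 point per gene coloured by family, filled where the authors' q is under 0.05. The solid line marks equal levels and the dashed lines 2-fold; ADAM12 and ADAMTS5 lie beyond the lower dashed line, and the abundant MMP15 lies on the line of equal levels. MMP11 (row 2) is ENSGALG00000005983.

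Among secreted MMPs, MMP2 (gelatinase A, which cuts denatured collagen and basement membrane collagen) was at 73.9 FPKM in anterior half-sclerotomes and at 101 in posterior ones. It was thus 1.37-fold higher in posterior (log2 ratio 0.45, q = 0.00473 from the authors' deposited table), from a gene on chromosome 11 (3182494 to 3220410, galGal4). It was the most abundant secreted MMP whose symbol is not in doubt. MMP28 (epilysin) was at 10.4 and 11.2 FPKM, anterior and posterior, a log2 ratio of 0.11 (q = 0.878 from the authors' deposited table).

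The symbol MMP11 (stromelysin-3) stands on 2 neighbouring rows of chromosome 15, separated by 626 bases. The first, ENSGALG00000005968, was at 4.65 FPKM in anterior and 7.29 in posterior, a log2 ratio of 0.65 that did not pass (p = 0.0184, q = 0.166 from the authors' deposited table). The second, ENSGALG00000005983, was at 176 and 165 FPKM, a log2 ratio of -0.09 (q = 0.840 from the authors' deposited table). In the RefSeq names of assembly GRCg7b, MMP11 is listed as a synonym of SMARCB1, a chromatin remodelling gene of chromosome 15 that is 9953 bases long, and the second row spans 9955 bases. Its level is therefore not read here as that of a protease. Without it, MMP levels summed to 314 FPKM in anterior and 338 in posterior.

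The other secreted MMPs were near the lower end of the scale and were not tested by the authors. MMP9 (gelatinase B) was at 0.137 and 0.156 FPKM, MMP27 at 0.135 and 0.0584, and MMP13 (a collagenase) at 0.0191 and 0.0167. MMP7 and MMP10 are listed at 0 in both groups. MMP13, MMP10, MMP27 and MMP7 lie in a row on chromosome 1, between 181647083 and 181779895 (galGal4), so that whole cluster had no level above that of MMP27.

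Among membrane-bound MMPs, MMP16 (MT3-MMP, an activator of MMP2) was at 3.47 FPKM in anterior and 5.54 in posterior half-sclerotomes. It was 1.60-fold higher in posterior (log2 ratio 0.68, q = 0.00865 from the authors' deposited table) and lies on chromosome 2 (123445894 to 123621303, galGal4). MMP15 (MT2-MMP) was the most abundant member of all, above 94.6% of tested rows in mean FPKM. Its levels were 179 FPKM in anterior and 176 in posterior, 1.01-fold apart (q = 0.968 from the authors' deposited table). MMP17 (MT4-MMP, held by a lipid anchor) was at 33.2 and 25.9 FPKM, a log2 ratio of -0.36 that did not pass (p = 0.0141, q = 0.137 from the authors' deposited table). MMP24 (MT5-MMP) was at 8.30 and 10.2 FPKM (q = 0.946 from the authors' deposited table), in a locus that overlaps those of several more abundant genes, including AHCY. MMP23B was at 0.543 and 0.907 FPKM and was not tested. No row carried the symbol MMP14, so that gene is not in the summed MMP levels.

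Among ADAMs with a catalytic domain, ADAM12 (meltrin alpha, a protease of mesenchyme and fusing muscle cells) had the largest difference of all tested members. It was at 4.12 FPKM in anterior and 1.06 in posterior half-sclerotomes, 3.88-fold lower in posterior (log2 ratio -1.96, q = 0.00139 from the authors' deposited table), on chromosome 6 (32099556 to 32274313, galGal4). The dermomyotome and myotome markers, among them ACTC1 at 40.4 and 13.1 FPKM and CHRNA1 at 9.63 and 2.89, had the same direction. So had the crest and Schwann cell precursor markers (summed FPKM 231.6 and 16.0), the neuron markers (88.0 and 51.1) and the anterior marker TBX18 (32.5 and 3.10). The part of any of these cells in the ADAM12 difference was not tested.

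Of 5 tested ADAMs with a catalytic domain, ADAM12 was the 1 called (20%, beside 7.07% of all tested rows). The other tested ones, more abundant than ADAM12, had levels at most 1.16-fold apart in the groups. They are too few genes for the lack of a call to set them apart. ADAM10, which cuts Notch, cadherins and ephrins, was at 83.7 FPKM in anterior and 77.5 in posterior (q = 0.935 from the authors' deposited table). Its locus overlaps that of ALDH1A2, a retinoic acid synthesis gene at 137 and 187 FPKM, so reads could be divided between them. ADAM17, which releases growth factors from the cell surface, was at 31.2 and 31.8 FPKM (q = 0.968 from the authors' deposited table), and ADAM9 was at 25.5 and 24.1 (q = 0.886 there). ADAM33 was at 22.1 and 19.1 FPKM (q = 0.540 from the authors' deposited table). ADAM8 and ADAM19 (meltrin beta) were between 0.435 and 0.592 FPKM in both groups and went untested.

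ADAM22, ADAM23 and ADAM11 lack protease activity and act as receptors of secreted LGI proteins on nerve cells. ADAM22 was at 3.30 FPKM in anterior and 6.28 in posterior half-sclerotomes, 1.90-fold higher in posterior (log2 ratio 0.93, q = 0.00139 from the authors' deposited table), on chromosome 2 (20749272 to 20857559, galGal4). ADAM23 was at 3.03 and 3.15 FPKM (q = 0.963 from the authors' deposited table) and ADAM11, not tested, at 0.791 and 0.830. The neuron markers had a higher level in anterior, the opposite direction to ADAM22. Summed levels of the endothelial markers (87.1 and 129.5 FPKM, anterior and posterior) and of the sclerotome markers (689 and 954) had the same direction as ADAM22. Within those lists PECAM1 and FOXC2 had the opposite direction. The part of any of these cells in the ADAM22 difference was not tested.

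**Figure D2:**
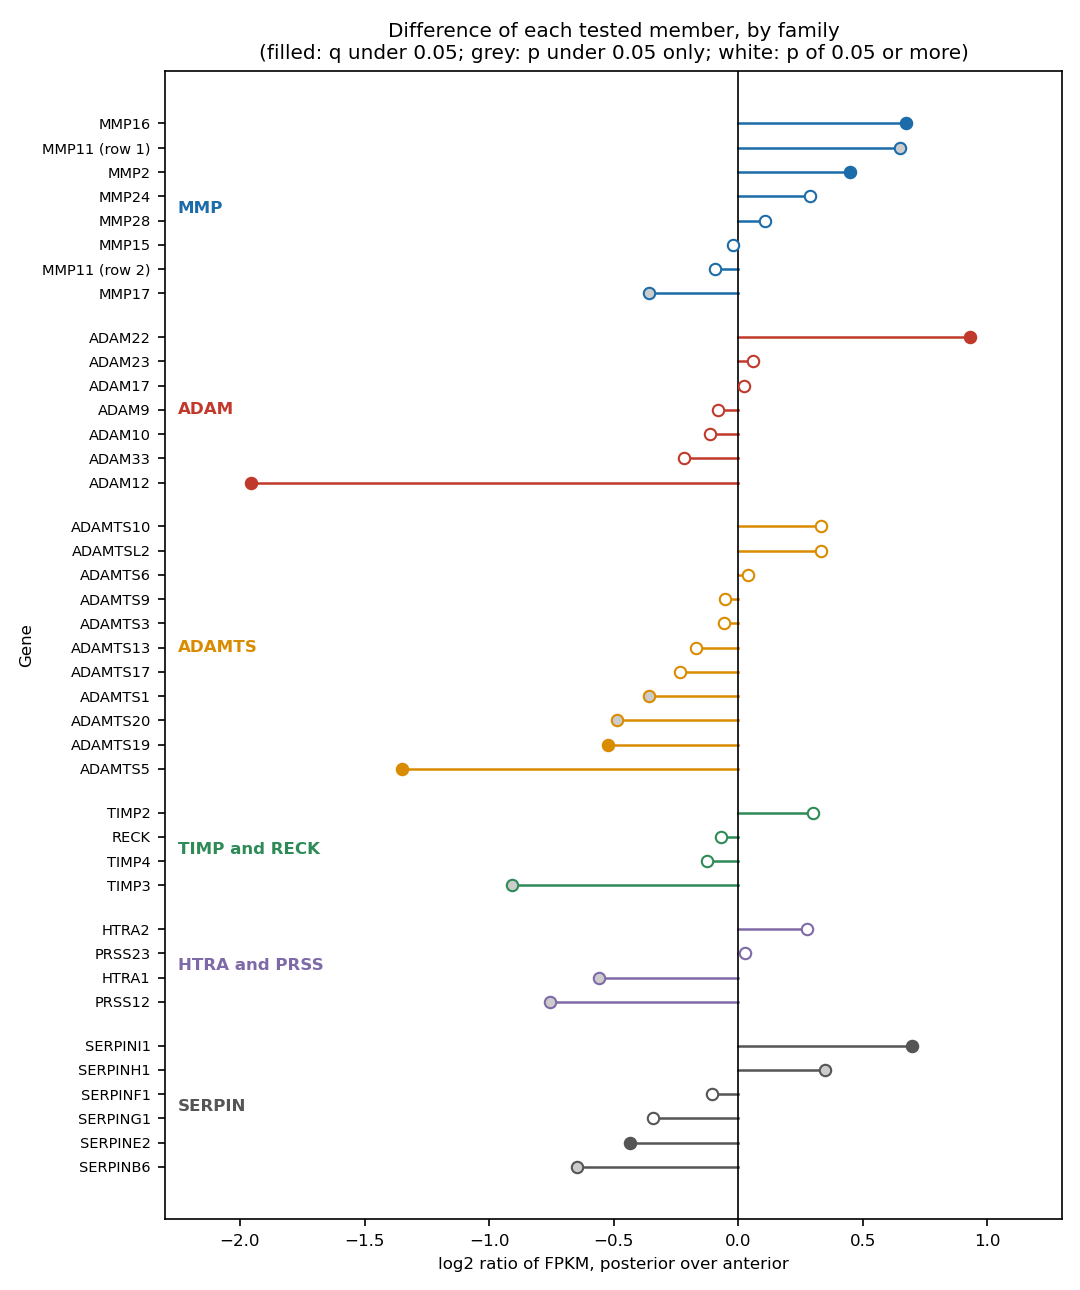
The log2 ratio of posterior over anterior FPKM for each of the 40 tested members, grouped by family; points are filled where the authors' q is under 0.05, grey where only the unadjusted p is, and white otherwise. The 4 tested proteoglycan-cleaving genes ADAMTS1, ADAMTS5, ADAMTS9 and ADAMTS20 all lie left of 0, and ADAM12 has the longest line. MMP11 (row 1) is ENSGALG00000005968 and MMP11 (row 2) is ENSGALG00000005983.

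Of the ADAMTS enzymes that cut versican and aggrecan, the 4 tested had a lower level in posterior. Of all tested rows, 5138 had a log2 ratio below 0 and 5335 above. Only 1 of the 4 passed (25%, beside 7.07% of all tested rows), too few genes to speak of a shared pattern. ADAMTS5 (aggrecanase-2) was at 1.96 FPKM in anterior and 0.770 in posterior half-sclerotomes, 2.55-fold lower in posterior (log2 ratio -1.35, q = 0.0358 from the authors' deposited table). It lies on chromosome 1 (102403453 to 102442746, galGal4), 32250 bases from its neighbour ADAMTS1. ADAMTS1 was at 11.1 and 8.66 FPKM, a log2 ratio of -0.36 that did not pass (p = 0.0258, q = 0.207 from the authors' deposited table). ADAMTS20, which in mice is needed for the spread of pigment cells in the skin, was at 2.22 and 1.59 FPKM (log2 ratio -0.49, p = 0.0223, q = 0.188 from the authors' deposited table). ADAMTS9 was at 8.18 and 7.88 FPKM (log2 ratio -0.05, q = 0.938 from the authors' deposited table). The untested ADAMTS8 and ADAMTS15, neighbours on chromosome 24, were at 0.313 and 0.387 FPKM and at 0.481 and 0.412, anterior and posterior. Of their substrates, versican (VCAN) was at 33.3 and 42.6 FPKM (q = 0.0630 from the authors' deposited table), and aggrecan (ACAN), not tested, at 0.676 and 0.174.

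Of the other ADAMTS genes, ADAMTS19 was at 7.80 FPKM in anterior and 5.43 in posterior half-sclerotomes, 1.44-fold lower in posterior (log2 ratio -0.52, q = 0.0244 from the authors' deposited table). It lies on chromosome Z (45146955 to 45309166, galGal4). The sources used here do not give the sex of the embryos in each pool. ADAMTS10, which acts on fibrillin microfibrils, was at 3.33 and 4.19 FPKM (log2 ratio 0.33, q = 0.444 from the authors' deposited table). Its locus overlaps that of gga-mir-6615, listed at 83.3 FPKM in anterior and 0 in posterior. ADAMTS13, the protease of von Willebrand factor, was at 2.15 and 1.91 FPKM (q = 0.838 from the authors' deposited table). ADAMTS6 and ADAMTS17 were between 1.26 and 1.67 FPKM in both groups, with q of 0.968 and 0.813 from the authors' deposited table.

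Of the procollagen-processing enzymes, ADAMTS3 was at 3.86 and 3.72 FPKM (q = 0.953 from the authors' deposited table), and ADAMTS2 at 0.173 and 0.354, not tested. ADAMTSL2, a matrix protein with no protease domain, was at 3.49 and 4.40 FPKM (q = 0.516 from the authors' deposited table). The remaining ADAMTS-like genes and ADAMTS18 were below 1 FPKM in both groups and went untested.

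None of the metalloprotease inhibitors passed the test (0 of 4, beside 7.07% of all tested rows), which in so few genes does not set them apart. TIMP3 alone had an unadjusted p under 0.05 from the authors' deposited table (1 of 4, beside 16.1% of all tested rows). TIMP2, which blocks MMPs and also helps MMP14 activate MMP2, was the most abundant, at 50.4 FPKM in anterior and 62.0 in posterior half-sclerotomes (log2 ratio 0.30, q = 0.364 from the authors' deposited table). TIMP3, which binds the matrix and blocks ADAM17 and ADAMTS enzymes as well, was at 6.70 and 3.57 FPKM, 1.88-fold apart (log2 ratio -0.91, p = 0.0122, q = 0.124 from the authors' deposited table). TIMP4 was at 29.3 and 26.9 FPKM (q = 0.908 from the authors' deposited table). RECK, a membrane-anchored inhibitor of MMPs, was at 27.8 and 26.5 FPKM (q = 0.916 from the authors' deposited table). TIMP3 and TIMP4 each overlap a synapsin gene, SYN3 and SYN2, whose level was 0.823 FPKM or less. The levels of all 4 inhibitors summed to 114 FPKM in anterior and 119 in posterior.

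Among serine proteases, HTRA1, a secreted enzyme that cuts fibronectin and proteoglycans, was at 16.3 FPKM in anterior and 11.1 in posterior half-sclerotomes. Its log2 ratio of -0.56 lay just outside the threshold (p = 0.0036, q = 0.0506 from the authors' deposited table). HTRA2, a mitochondrial enzyme, was at 33.2 and 40.2 FPKM (q = 0.367 from the authors' deposited table). HTRA3 was at 0.4996 and 1.095 FPKM and was not tested. PRSS12 (neurotrypsin, which cuts agrin at synapses) was at 2.096 and 1.24 FPKM, a log2 ratio of -0.75 that did not pass (p = 0.0133, q = 0.132 from the authors' deposited table). PRSS23 was at 19.9 and 20.2 FPKM (q = 0.978 from the authors' deposited table), and the other 6 PRSS genes, not tested, reached 1.005 FPKM at most.

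The serpins had calls in both directions (2 of 6 tested, beside 7.07% of all tested rows). SERPINI1 (neuroserpin, an inhibitor of tissue plasminogen activator known from neurons) was at 15.1 FPKM in anterior and 24.5 in posterior half-sclerotomes, 1.62-fold higher in posterior (log2 ratio 0.70, q = 0.00139 from the authors' deposited table). It lies on chromosome 9 (20037599 to 20076593, galGal4). The neuron markers TUBB3, at 64.4 and 36.4 FPKM, RET, at 5.80 and 2.48, and ELAVL4, at 14.7 and 11.9, had the opposite direction. ELAVL4 was not called (q = 0.606 from the authors' deposited table). Summed levels of endothelial and sclerotome markers had the same direction as SERPINI1, though PECAM1 and FOXC2 within those lists had the opposite one. The part of any of these cells in the SERPINI1 difference was not tested.

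SERPINE2 (protease nexin-1, an inhibitor of thrombin and plasminogen activators) was the most abundant serpin, at 130 FPKM in anterior and 96.0 in posterior half-sclerotomes. It was 1.35-fold lower in posterior (log2 ratio -0.43, q = 0.0103 from the authors' deposited table) and lies on chromosome 9 as well (7800341 to 7823704, galGal4). Among proteases that these serpins are known to block, or their precursors, those listed here with a row had low RNA levels. PLG, plasminogen, matched no row. PLAT, tissue plasminogen activator and a target of both, was at 1.55 and 1.39 FPKM (q = 0.911 from the authors' deposited table), PLAU, urokinase, at 1.51 and 1.22 and not tested, and F2, which encodes prothrombin, the precursor of the SERPINE2 target thrombin, at 2.21 and 1.84 (q = 0.963 there).

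SERPINH1 (HSP47, a collagen chaperone that blocks no protease) was at 83.1 and 106 FPKM, a log2 ratio of 0.35 that did not pass (p = 0.0117, q = 0.120 from the authors' deposited table). SERPINF1 (pigment epithelium-derived factor, which also blocks no protease) was at 106 and 98.7 FPKM (q = 0.824 from the authors' deposited table). SERPING1 (C1 inhibitor) was at 17.2 and 13.6 FPKM (q = 0.434 from the authors' deposited table), and its locus overlaps that of an unnamed gene at 12.8 and 13.9. SERPINB6, which acts inside cells, was at 3.66 and 2.34 FPKM (log2 ratio -0.65, p = 0.0189, q = 0.169 from the authors' deposited table).

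The 4 clade A serpins, a cluster on chromosome 5 between 44772723 and 44951081 (galGal4), were at 0.0439 FPKM or less. The other 5 clade B serpins, neighbours of SERPINB6 on chromosome 2, were at 0.0903 FPKM or less. SERPINF2 was at 0.290 and 0.259 FPKM, anterior and posterior, and SERPINE3 is listed at 0 in both groups. SERPIND1 was at 0.0556 and 0.242 FPKM, in a locus that overlaps that of PI4KA (26.1 and 28.7). None of these serpins was tested. SERPINC1 (antithrombin) was at 1.14 and 1.24 FPKM and was the highest of the 36 members that were not tested. Of those 36, 9 are listed at 0 in both groups and 17 were under 0.1 FPKM in both.

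**Figure D3:**
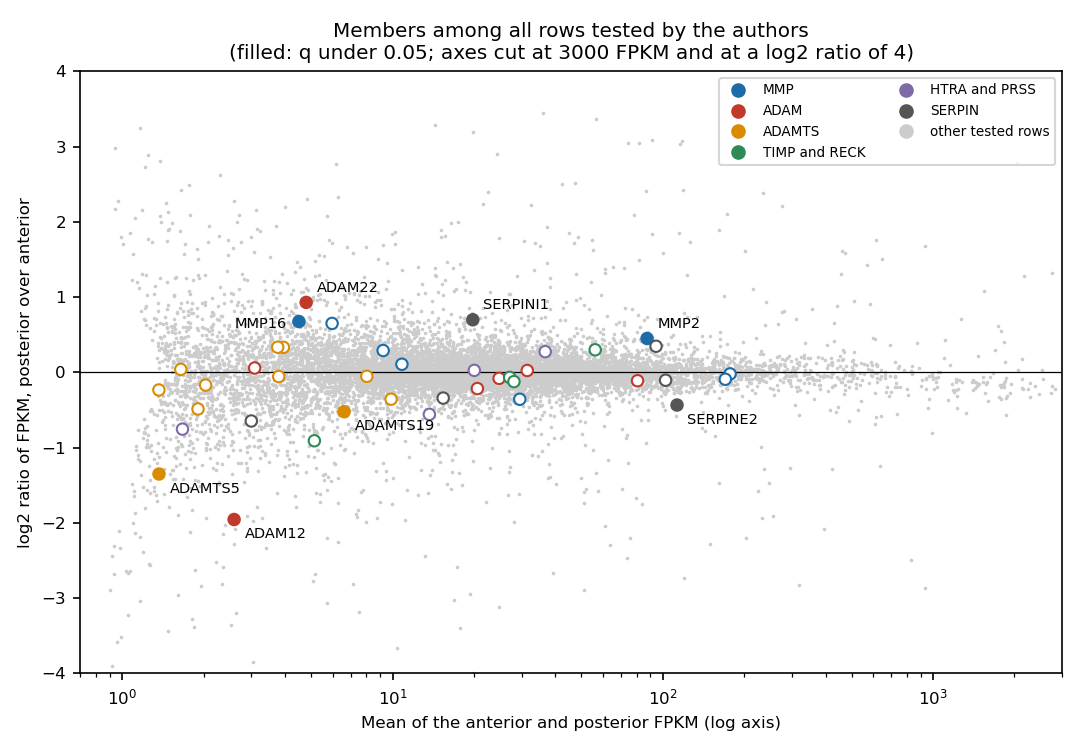
The log2 ratio of posterior over anterior FPKM against the mean FPKM (log axis) for members, coloured by family and filled where the authors' q is under 0.05, and for all other tested rows in grey. MMP2 and SERPINE2 were called at small ratios and high FPKM, and ADAM12 and ADAMTS5 lie at low FPKM, where grey points spread more widely.

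The called members spanned a wide range of levels. SERPINE2 and MMP2 had a mean level above 91.3% and 88.8% of tested rows, whereas ADAM12 and ADAMTS5 were above 8.29% and 1.102%. The other called members, SERPINI1, ADAMTS19, ADAM22 and MMP16, were above 53.1%, 23.5%, 17.3% and 16.2%. Of the 8 called members, 4 overlap the locus of another row, and no overlapping row was above 0.0812 FPKM in either group. Of 22 tested metalloproteases classed here as catalytic, without the second row named MMP11, 2 were called higher in posterior and 3 in anterior (22.7%, beside 7.07% of all tested rows).

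Other genes of matrix proteolysis were taken in 6 lists, chosen with earlier results of these data known. They gave 8 posterior and 5 anterior calls among 76 tested from the authors' deposited table (17.1%, beside 7.07% of all tested rows). Of these 13 calls, 6 were among the 19 tested genes of the list of substrates, not among proteases, inhibitors or their partners. None of the 10 tested genes of the lysosomal list, cathepsins and legumain (LGMN), was called (beside 7.07% of all tested rows). In so few genes this does not set them apart. An unadjusted p under 0.05 from the authors' deposited table was found for 2 of the 10 (beside 16.1%). Among 6 tested proprotein convertases, some of which activate membrane MMPs and ADAMs, PCSK5 was the 1 called (16.7%, beside 7.07% of all tested rows). It was at 16.8 FPKM in anterior and 53.5 in posterior (log2 ratio 1.68, q = 0.00139 from the authors' deposited table), on chromosome Z, while FURIN was at 15.4 and 17.3 (q = 0.675 there).

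Of 12 tested genes listed as other extracellular proteases, 1 was called higher in each group (16.7% together, beside 7.07% of all tested rows). That list also holds NLN and THOP1, peptidases that do not act mainly outside cells. MME (neprilysin, a surface peptidase) was at 0.677 FPKM in anterior and 2.89 in posterior (log2 ratio 2.09, q = 0.00139 from the authors' deposited table). ST14 (matriptase, an epithelial serine protease) was at 3.91 and 2.30 FPKM (log2 ratio -0.77, q = 0.0399 from the authors' deposited table). Of 18 tested genes listed as other inhibitors and modifiers, 2 were called (11.1%, beside 7.07% of all tested rows). PI15 was higher in posterior, at 10.2 and 20.7 FPKM (q = 0.00139 from the authors' deposited table). THSD4, an ADAMTS-like matrix protein that is no inhibitor, was higher in anterior, at 3.94 and 2.17 (q = 0.00776 there).

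Among 11 tested partners and receptors, 2 were called (18.2%, beside 7.07% of all tested rows). TSPAN5, a tetraspanin that guides ADAM10 to the cell surface, was at 15.1 FPKM in anterior and 21.1 in posterior (log2 ratio 0.48, q = 0.0224 from the authors' deposited table). The integrin subunit ITGB3 went the other way, at 25.6 and 15.9 FPKM (log2 ratio -0.69, q = 0.00139 from the authors' deposited table). BSG (basigin, an inducer of MMPs) was at 245 and 244 FPKM (q = 0.996 from the authors' deposited table).

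Of 19 tested substrates, 4 were higher in posterior and 2 in anterior from the authors' deposited table (31.6%, beside 7.07% of all tested rows). The list was chosen with earlier results of these data known, so its share is no measure of protease substrates as a class. The 4 higher in posterior were EFNB1, EFNB2, CDH5 and VWF. The ephrins EFNB1 and EFNB2, of a family that ADAMs cut, were at 75.4 and 393 and at 3.55 and 10.7 FPKM, anterior and posterior. CDH5 (24.96 and 41.1 FPKM) and VWF (0.620 and 2.45), the substrates of ADAM10 and ADAMTS13, are also endothelial markers. COL2A1 was at 487 and 343 FPKM and fibronectin (fn1) at 125 and 96.5 (q = 0.00139 and 0.0444 from the authors' deposited table).

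**Figure D4:**
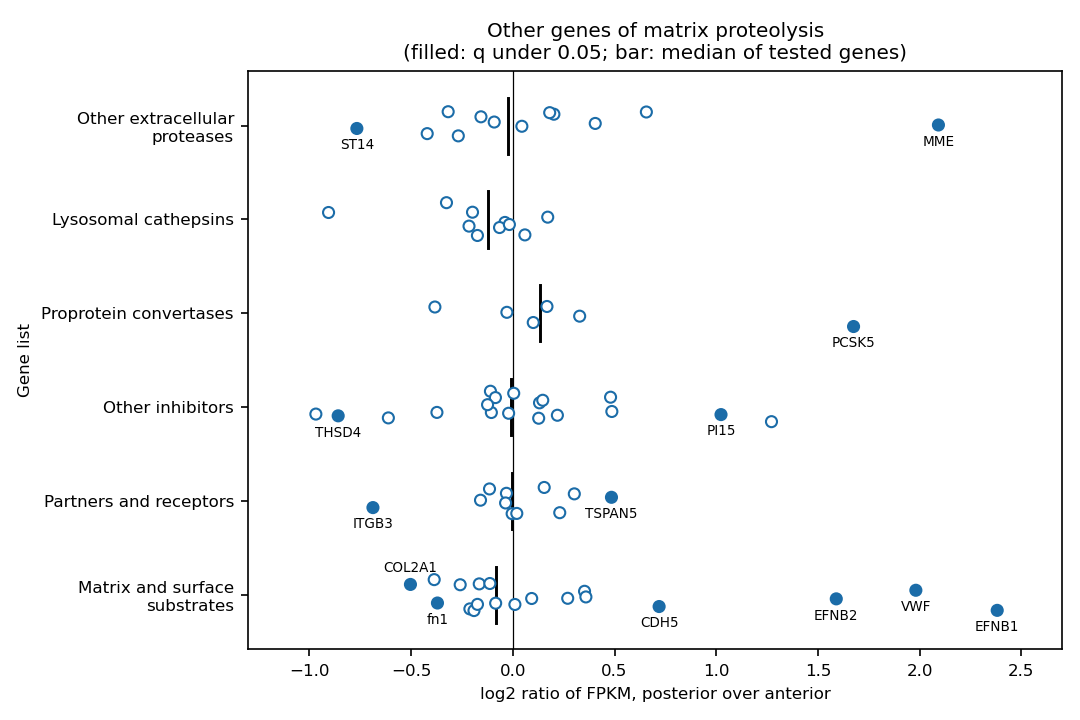
The log2 ratio of posterior over anterior FPKM for the 76 tested genes of 6 lists of other proteolysis genes, 1 point per gene, filled where the authors' q is under 0.05, with a bar at the median of each list. All 6 medians lie between -0.12 and 0.13, and the named points are the 13 called genes, with EFNB1, MME and VWF farthest to the right.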

How the data were processed

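Poly(A)-selected RNA (about 200 ng per pool) was read as 50 nt single-end reads, per the labels' protocols. Alignment and quantification tools listed in the submitters' processing notes are TopHat2 2.1.0 and Cufflinks 2.2.1 with Cuffdiff, beside FastQC and the galGal4 build, with no role for any. The sources used here do not give the annotation release or how libraries were scaled to each other. Per the file headers, the deposited table gives the authors' FPKM value for each group, a test statistic (a score, not used here), and the authors' p-value and q-value. No counts are given, so depth is unknown, and neither counting intervals nor detection limits are printed. FPKM depends on library totals, transcript length and how reads of overlapping genes were divided. Symbols are those of the table.

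Here log2 ratios of posterior over anterior FPKM were computed with no pseudocount, since 1 value per group allows no test beyond the authors' own. A member was called at the authors' q under 0.05. Adjusting the deposited p-values by Benjamini-Hochberg over tested rows returned the deposited q to within 5.27e-07. As many as 380 genes had the lowest p, 5e-05, and cannot be ranked by it. The authors did not test 36 members, which says nothing of a difference. Table starts had 1 added, as the lowest start is 0. Named members were those called, with p under 0.05, of TIMP, RECK or HTRA, among the 10 highest in mean FPKM, or among the 3 highest tested of a role group; others, such as ADAM33, ADAMTS6, ADAMTS17 and untested members, were added after their values were seen, to account for every member. Counting was tested on simulated data. Members and lists were chosen with earlier results of these data known. For list genes, RefSeq synonyms (GRCg7b) were used for names only, and 115 of 141 pathway genes matched a row. Alternatives were other q thresholds, a minimum fold, filters on FPKM and overlapping loci, pseudocounts, centring and the choice of rows. Python 3.11.15 and pandas 2.3.3 were used.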

Additional observations from a re-analysis of the deposited data

How the results depend on the processing

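Adding 0.1 or 1 FPKM to both groups cannot turn a ratio, and centring moved every log2 ratio by 0.00459 or 0.00349, less than that of any tested member, so neither says anything of the stability of a direction. The size of a difference at low FPKM did depend on the addition. With 1 FPKM added, the log2 ratio of ADAM12 went from -1.96 to -1.31. That of ADAMTS5 went from -1.35 to -0.74, under 2-fold. The 4 members higher in posterior became 2 without rows that overlap another row's locus, and the 4 higher in anterior likewise became 2. No overlapping row of a called member exceeded 0.0812 FPKM, and without only the rows that overlap a row at 1 FPKM or more, a filter chosen after seeing the data, both counts were 4. The anterior count was 1 at a q threshold of 0.01 and 2 with a minimum of 1.5-fold, whereas the posterior count was 4 and 3. HTRA1 made the anterior count 5 at a q threshold of 0.1 and also with Benjamini-Hochberg over rows with a gene symbol only. The median log2 ratio of tested members, -0.0738, was -0.0784 when centred on all tested rows, -0.0773 when centred on rows with a mean FPKM of at least 10, and -0.0615 over all members above 0 in both groups. No paired analysis was possible because the table holds 1 value per group and none per library, and for the same reason no library could be left out.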
